A study of Homo sapiens with 6 samples.

Results

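The genes described here are 39 of the 58978 genes of the count table, chosen by name as the machinery that sorts cargo at the trans-Golgi network. They comprise a trans-Golgi marker with golgins and their GTPases (7 genes), phosphatidylinositol 4-phosphate and lipid transfer genes (7), ARF GTPases with exchange factors and arfaptins (7), the clathrin adaptors AP-1 and GGA (9), SNAREs of endosome-to-Golgi fusion (4), and RAB GTPases with a fission factor and a cargo receptor (5). All 39 had enough reads to be tested.

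The trans-Golgi network is the exit compartment of the Golgi, where newly made membrane and secreted proteins are packed into carriers for the plasma membrane, endosomes and lysosomes. The small GTPase ARF1 and the lipid phosphatidylinositol 4-phosphate act together there as a membrane address that recruits clathrin adaptors, lipid transfer proteins and arfaptins, while golgins, RAB GTPases and SNAREs capture and fuse carriers that return from endosomes. In polarised epithelia such as that of the colon, a form of AP-1 with the medium chain of AP1M2 sorts receptors to the basolateral surface.

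The cells were HT29, an established human colorectal adenocarcinoma line, untreated in both groups. The control group (shCTRL) carried a control hairpin and is labelled wild type, and the other group (shFITM2) carried a hairpin that knocks down FITM2, a protein of the endoplasmic reticulum needed for lipid droplet formation. Each group had 3 libraries of total RNA, and by its title the study is about traffic of IFNGR1, a chain of the interferon-gamma receptor, and about diacylglycerol at the trans-Golgi network. The labels give neither the hairpin sequences, nor the number of hairpins or clones, nor whether the replicates were separate cultures, so p-values reflect spread among libraries alone, and that spread may be technical.

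Libraries held 16964075 to 18855731 reads, of which the 39 genes took 5157 to 5247 CPM (counts-per-million of the TMM-scaled library size) in shCTRL and 5061 to 5126 in shFITM2. FITM2 (GRCh38 chr20:44302838-44311169, minus strand) measured 13.25, 10.55 and 10.44 CPM in shCTRL and 4.83, 5.98 and 4.95 CPM in shFITM2. Its log2 fold change was −1.12 ± 0.157 (SE; adjusted p = 0.000242), and no alternative setting ended this call. An exact permutation test over the libraries (two-sided) gave p = 0.1, its minimum for 3 against 3. Of 10 colon epithelium markers, 9 averaged at least 1 CPM over all 6 libraries, and CDX1 did not. CDX2 was near that limit, at 0.689, 0.649 and 1.115 CPM in shCTRL and 1.482, 1.955 and 1.71 CPM in shFITM2. The summed level of the 10 markers was 9423 to 11390 CPM in shCTRL and 12920 to 13640 CPM in shFITM2, mostly keratins KRT8 and KRT18. EPCAM and CDH17 went the other way, lower in every shFITM2 library than in any shCTRL library. Summed leukocyte markers were 9.47 to 12.4 CPM and 10.3 to 14.0 CPM, nearly all CD14. Fibroblast markers summed to at most 2.52 CPM, with COL1A2 and PDGFRB at 0 in all libraries, and endothelial markers to at most 1.98 CPM. In bulk RNA, fewer cells that express a gene and less RNA per cell cannot be told apart.

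Each gene has 2 fits, because fold changes across the whole table followed the GC content of the transcripts. The group fit is edgeR's quasi-likelihood F-test, Benjamini-Hochberg adjusted over all 14809 tested genes, and a gene is called at an adjusted p under 0.05. The fit with the GC offset removes from each library the part of its expression profile that follows transcript GC content, over 14635 genes with a GC value. Fold changes are on the log2 scale, shFITM2 minus shCTRL, and values set against a call of the group fit are signed log2 fold changes with the offset.

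The sorting genes were called in both directions in the group fit, as all tested genes were. Of the 39 genes, 12 were called higher and 14 lower in shFITM2, where 24.2% and 24.5% of all tested genes were called in those directions. The median log2 fold change was −0.09, against −0.0002 over the 14635 genes that had both fits, and single genes ran from −0.64 (SACM1L) to 0.86 (ARFRP1). None was called at 2-fold or more, against 5.27% of all tested genes. With the GC offset, 5 were called higher (ARL1, ARFIP2, AP1S1, RAB11A and SORT1) and 2 lower (SACM1L and AP1B1), beside 13.5% and 14.6% of all genes, and the median was 0.04. AP1S1 and ARFIP2 were called higher in both fits and SACM1L lower in both, where 8.62% and 8.55% of all genes were called in the same direction. RAB11A was called lower without the offset and higher with it, which 1.94% of all genes did.

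**Figure D1:**
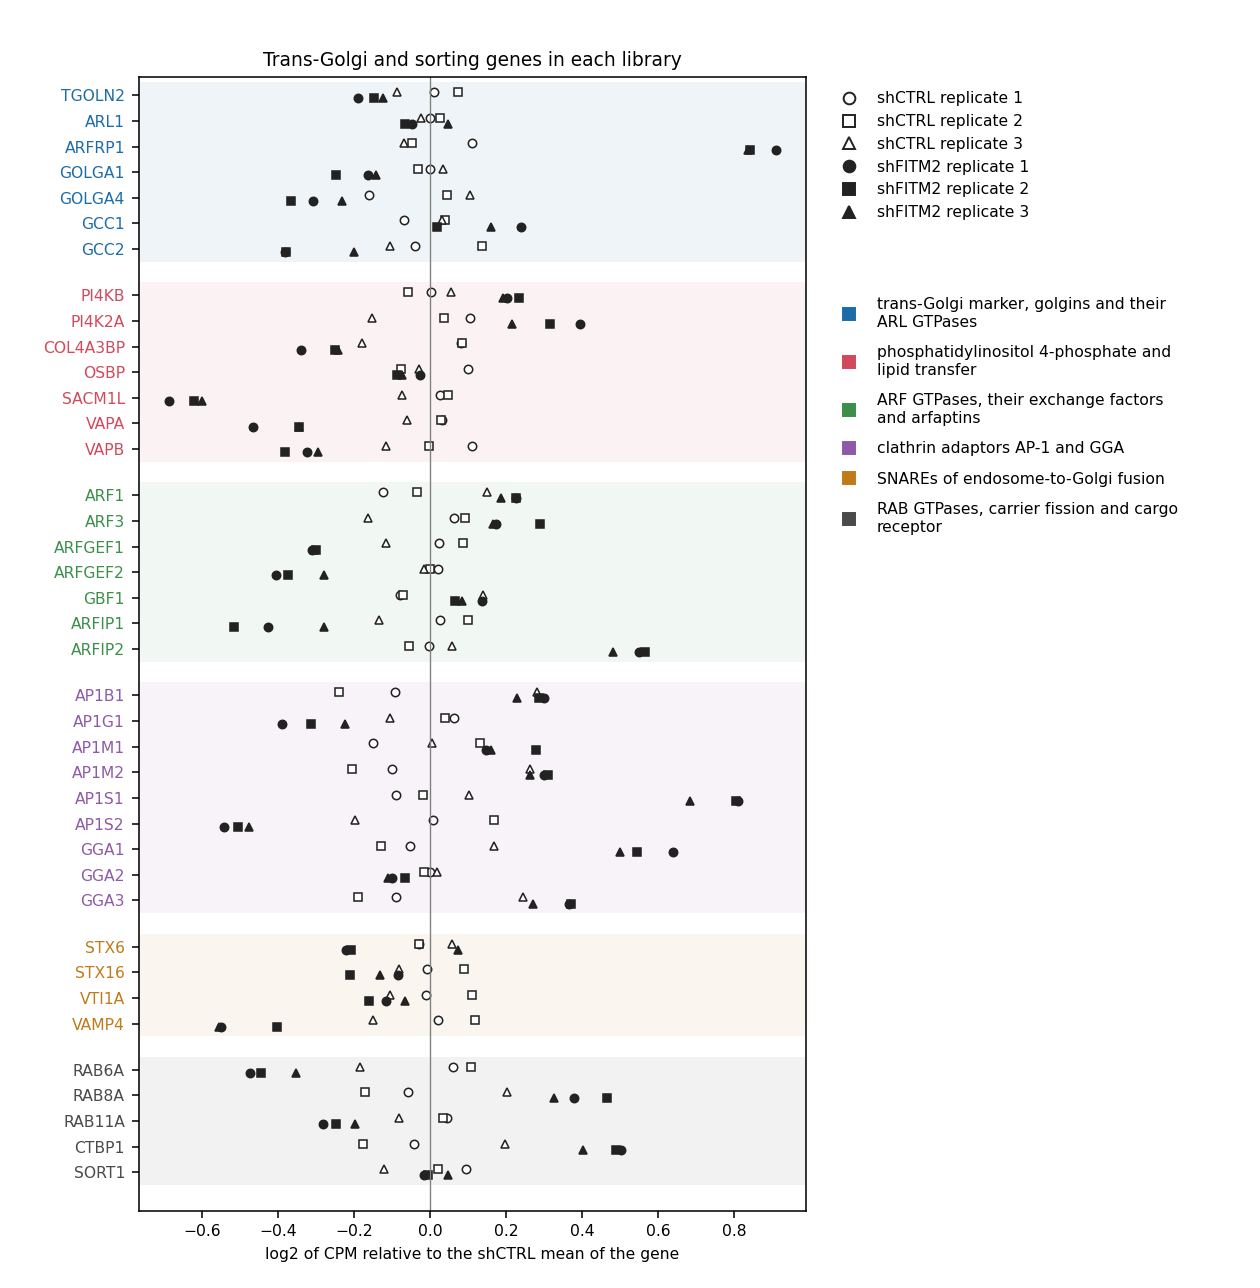
Level of each of the 39 genes in each of the 6 libraries, as log2 of its CPM relative to the shCTRL mean of that gene, grouped by role (coloured names and bands); open symbols are shCTRL and filled symbols shFITM2 libraries, with a shape for each replicate number. ARFRP1 and AP1S1 lie farthest to the right and SACM1L farthest to the left, and the open triangles of shCTRL replicate 3 lie between the other open symbols and all filled ones in 23 rows.

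The shCTRL and shFITM2 libraries did not overlap in CPM for 30 of the 39 genes, where 59% of all tested genes were so separated. After GC adjustment this held for 16 of 39, where 43% of all genes were separated. Replicate 3 of shCTRL sat between the other shCTRL libraries and all shFITM2 libraries for 23 of the 39 genes, a larger share than the 41.4% of all genes. Without that library the group fit called 15 of the 39 higher and 16 lower. The 5 genes gained without it were TGOLN2, GBF1, AP1B1, AP1M1 and STX16. With the GC offset, leaving it out gave 8 higher and 5 lower. SORT1 was then lost, GOLGA4, VAPA, AP1M1 and RAB8A were gained as higher, and TGOLN2, VAPB and RAB6A as lower. Counts over all genes without this library are not set beside these, so the gains are not shown to be particular to the 39 genes.

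Direction tracked base composition closely among these genes. The 12 genes called higher had transcripts of 52.5% to 64.1% GC (median 55.8%), and the 14 called lower had 32.8% to 44.5% GC (median 39.3%), so that the ranges did not meet. The 13 genes that were not called ran from 38.4% to 59.2% GC. Over all tested genes the medians were 58.9% for those called higher and 41.1% for those called lower. The Spearman correlation of log2 fold change and GC content was 0.901 over the 39 genes and 0.744 over all genes, and −0.17 over the 39 genes with the offset. These values describe genes measured in the same 6 libraries. Per 10 percentage points of GC, log2 expression of the 39 genes had slopes of −0.225, −0.292 and −0.0923 in shCTRL and 0.243, 0.215 and 0.152 in shFITM2. Over all genes the slopes were −0.266, −0.335 and −0.0649, and 0.261, 0.226 and 0.179. The slope was below 0 in every shCTRL library and above 0 in every shFITM2 library, with shCTRL replicate 3 nearest to 0. The sign of the fold change turned with the offset in 21 of the 39 genes, a larger share than the 31.3% of all genes.

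**Figure D2:**
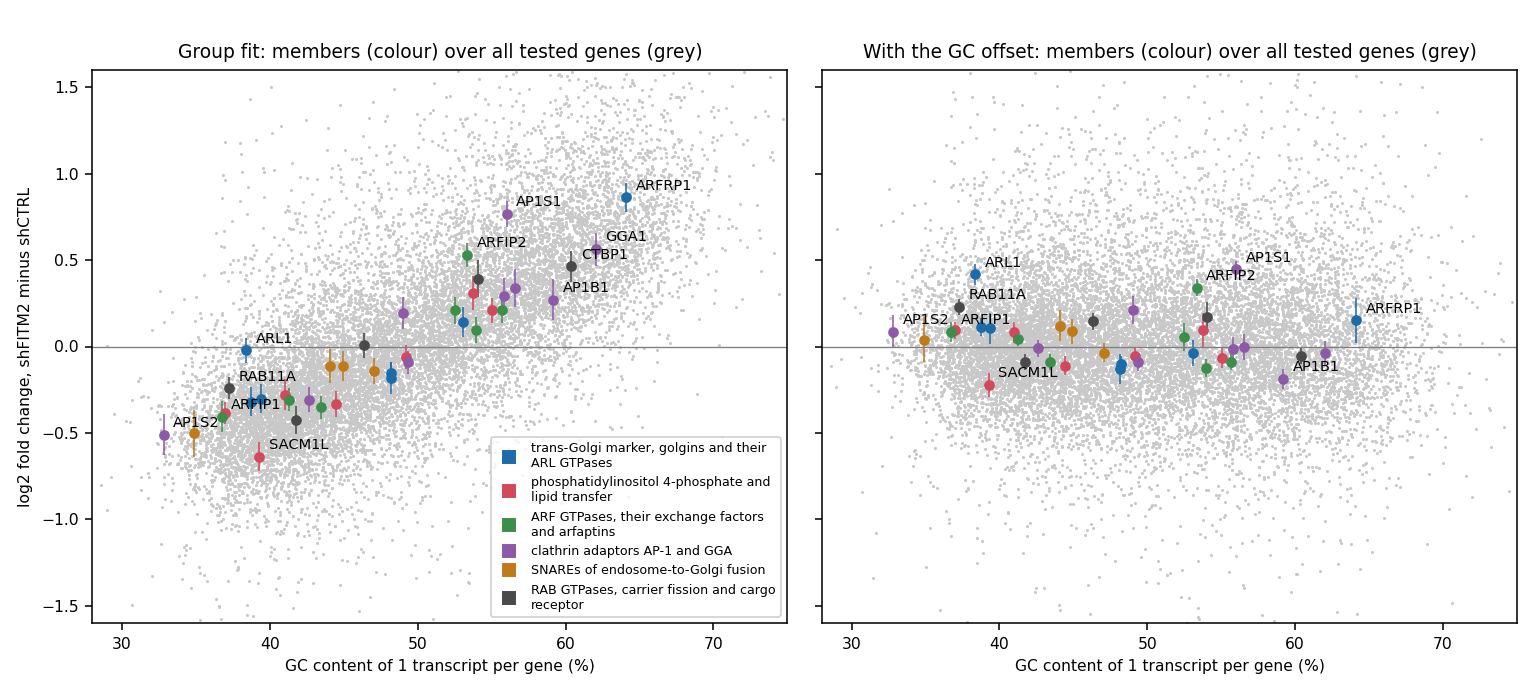
Log2 fold change (shFITM2 minus shCTRL) against transcript GC content in percent, in the group fit (left) and with the GC offset (right); coloured points are the 39 genes with standard errors, coloured by role, and grey points are all tested genes with a log2 fold change within the drawn range. On the left the 39 genes climb with GC content (Spearman 0.901), and on the right AP1S1, ARL1 and ARFIP2 lie highest and SACM1L lowest.

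Among the marker, golgins and their GTPases, ARFRP1 rose and GOLGA4 and GCC2 fell in the group fit, while ARL1 alone was called with the GC offset, upward. TGOLN2, the cycling membrane protein that marks the trans-Golgi network, measured 464.5, 484.5 and 434.1 CPM in shCTRL and 403.9, 416.2 and 422.9 CPM in shFITM2. Every shFITM2 library lay below every shCTRL library, by a small margin, and the fold changes of −0.15 (adjusted p = 0.0641) and −0.10 with the offset (adjusted p = 0.112) were not called. Without shCTRL replicate 3 it was called lower in both fits (adjusted p = 0.000188 and 0.00229).

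ARFRP1, a GTPase that acts upstream of ARL1, measured 35.55, 31.91 and 31.44 CPM in shCTRL and 61.97, 59.11 and 58.86 CPM in shFITM2. The libraries of each group lay close together and far from the other group. It rose by 0.86 ± 0.083 (SE; adjusted p = 4.61e-05), to 181.9% of control, the highest fold change of the 39 genes in the group fit. Its transcript is also the richest of them in GC (64.1%), and with the offset the value was 0.15 ± 0.132 (adjusted p = 0.449), with overlapping groups. The ARFRP1 value with the offset was −0.03 without shCTRL replicate 3, and 0.34 and called higher without the filter on low counts (adjusted p = 0.000264).

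ARL1, the GTPase that binds golgins with a GRIP domain and brings them to the trans-Golgi membrane, measured 68.14, 69.45 and 66.99 CPM in shCTRL and 65.93, 65.09 and 70.48 CPM in shFITM2. The groups overlapped, and the group fit gave −0.02 (adjusted p = 0.821). ARL1 has a transcript of 38.4% GC, below the 41.1% median of all genes called lower, and its GC-adjusted levels were 57.8, 55.4 and 62.8 CPM in shCTRL and 79.4, 76.1 and 79.3 CPM in shFITM2. With the offset it was called higher, at 0.42 ± 0.062 (adjusted p = 0.000164), a call that all 13 alternatives of that fit kept, at 0.25 to 0.46.

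The golgins themselves are long coiled-coil tethers that catch carriers arriving from endosomes. GCC2 measured 143.3, 162.1 and 136.9 CPM in shCTRL and 113.0, 113.2 and 128.2 CPM in shFITM2. All shFITM2 libraries were lower, and GCC2 fell by 0.32 (adjusted p = 0.00827), against 0.11 with the offset (adjusted p = 0.118). With the median GC content of its coding transcripts GCC2 was called higher, at 0.21 (adjusted p = 0.00661). GOLGA4 fell by 0.30 (adjusted p = 0.0127), against 0.11 with the offset. Both calls were lost without shFITM2 replicate 1 or shFITM2 replicate 2 (adjusted p = 0.05005 to 0.0503 for GCC2 and 0.0514 to 0.0682 for GOLGA4). GCC1 measured 35.8, 38.6 and 38.4 CPM in shCTRL and 44.4, 38.1 and 42.0 CPM in shFITM2, which overlap, and gave 0.14 and −0.04 with the offset. GOLGA1 gave −0.18 and −0.13. Neither passed in either fit. GCC1 shares 410 exon bases with ARF5 on the opposite strand, a gene with 3.45 times its reads, and GOLGA1 overlaps SCAI on the same strand.

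In the phosphoinositide group, PI4KB and PI4K2A, kinase genes for phosphatidylinositol 4-phosphate, rose in the group fit. The phosphatase that removes this lipid and the membrane receptors for lipid transfer proteins fell. Kinase genes for this lipid outside the 39 did not rise. PI4K2B was called lower (−0.33, adjusted p = 0.0309) and gave 0.09 with the offset, not called. PI4KA gave −0.03, not called, and was called lower with the offset (−0.31, adjusted p = 0.000308). The fall of SACM1L was the call of this group that the GC offset kept. SACM1L (Sac1), the phosphatase that consumes phosphatidylinositol 4-phosphate, lies at chr3:45689056-45745424 on the plus strand and measured 51.03, 51.76 and 47.63 CPM in shCTRL and 31.12, 32.60 and 33.03 CPM in shFITM2. The groups were well apart, with shFITM2 at 64.3% of control. It fell by 0.64 ± 0.082 (adjusted p = 0.000156), and by 0.22 ± 0.069 with the offset (adjusted p = 0.0248). GC-adjusted levels were 43.6, 42.0 and 44.8 CPM against 37.0, 37.8 and 37.0 CPM, still without overlap. The call with the offset was lost without shCTRL replicate 1, shFITM2 replicate 1, 2 or 3 (adjusted p = 0.0635 to 0.0831) and with the GC curve centred on its mean (adjusted p = 0.0574).

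The kinase genes PI4KB and PI4K2A rose by 0.21 (adjusted p = 0.0312) and 0.31 (adjusted p = 0.0243), and gave −0.07 and 0.09 with the offset, not called. PI4KB measured 61.2, 58.6 and 63.5 CPM in shCTRL and 70.2, 71.8 and 69.8 CPM in shFITM2. Its call was lost without any library other than shCTRL replicate 3 (adjusted p = 0.0706 to 0.129) and with no filter, the DESeq2 Wald test or the replicate block (adjusted p = 0.0522 to 0.088). PI4KB shares 384 exon bases with ZNF687 on the opposite strand, a gene with 0.989 times its reads. The PI4K2A call was lost without shFITM2 replicate 1 or 2 (adjusted p = 0.0838 to 0.116).

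VAPA and VAPB, receptors in the endoplasmic reticulum that dock lipid transfer proteins at Golgi contacts, fell together in the group fit. VAPA measured 272.3, 271.9 and 255.5 CPM in shCTRL and 192.9, 209.9 and 209.7 CPM in shFITM2. No shFITM2 library came near the shCTRL range, and VAPA fell by 0.38 ± 0.066 (adjusted p = 0.000733), against 0.09 with the offset (adjusted p = 0.179). VAPB fell by 0.33 (adjusted p = 0.0038), against −0.11 with the offset (adjusted p = 0.141). COL4A3BP, the ceramide transfer protein, fell by 0.28 (adjusted p = 0.023), against 0.08 with the offset, and its call was lost without any library other than shCTRL replicate 3 (adjusted p = 0.0556 to 0.0987). OSBP, which exchanges cholesterol for phosphatidylinositol 4-phosphate, gave −0.06 and −0.05, and its groups overlapped.

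Among ARF regulators, the GTPases and ARFIP2 rose, and the exchange factors ARFGEF1 and ARFGEF2 and the arfaptin ARFIP1 fell, in the group fit. With the GC offset ARFIP2 alone was called. The arfaptins are curved proteins that bind ARL1 and phosphatidylinositol 4-phosphate on trans-Golgi membranes. ARFIP2 (chr11:6474683-6481479, minus strand) measured 80.43, 77.46 and 83.76 CPM in shCTRL and 117.8, 119.2 and 112.4 CPM in shFITM2. The lowest shFITM2 library lay well above the highest shCTRL library. ARFIP2 rose by 0.53 ± 0.069 (adjusted p = 0.000166), and by 0.34 ± 0.050 with the offset (adjusted p = 0.000145), and all alternatives of either fit kept the call. It shares 33 exon bases with TIMM10B on the opposite strand, which had 0.427 times its reads.

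ARFIP1 (chr4:152779937-152918463, plus strand) went the other way, from 96.54, 101.5 and 86.35 CPM in shCTRL to 70.54, 66.24 and 78.03 CPM in shFITM2. Its groups did not overlap, with shCTRL replicate 3 nearest to shFITM2. It fell by 0.41 ± 0.088 (adjusted p = 0.00287), against 0.08 ± 0.058 with the offset (adjusted p = 0.313). The summed reads of both arfaptins were 175.3 ± 4.64 CPM in shCTRL and 188.1 ± 2.51 CPM in shFITM2 (SD, n = 3), while the share of ARFIP1 in them was 50.8% to 56.7% and 35.7% to 41.0%.

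ARF1 and ARF3, near-identical GTPases that recruit adaptors when loaded with GTP, rose by 0.21 each (adjusted p = 0.0322 and 0.0439), and gave −0.09 and 0.06 with the offset. ARF1 measured 472.7, 502.7 and 571.2 CPM in shCTRL and 602.6, 602.5 and 586.7 CPM in shFITM2. The groups did not overlap, with shCTRL replicate 3 close to shFITM2. The ARF1 call was lost without any library other than shCTRL replicate 3 (adjusted p = 0.0732 to 0.173) and with the replicate block (adjusted p = 0.0626). The ARF3 call was lost without shCTRL replicate 1 or any shFITM2 library (adjusted p = 0.0783 to 0.201), and with library totals, the DESeq2 Wald test or the replicate block (adjusted p = 0.0547 to 0.0658). ARF1 and ARF3 have coding sequences that are 83.8% identical, so some reads may be split between them.

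ARFGEF1 and ARFGEF2 (BIG1 and BIG2) load ARF1 and ARF3 with GTP at the trans-Golgi network. ARFGEF2 measured 224.6, 221.3 and 218.9 CPM in shCTRL and 167.3, 170.8 and 182.4 CPM in shFITM2. The shCTRL libraries lay within a few CPM of each other and above all shFITM2 libraries. ARFGEF2 fell by 0.35 ± 0.064 (adjusted p = 0.00101), and ARFGEF1 by 0.31 (adjusted p = 0.00328), against −0.09 and 0.04 with the offset. GBF1, the exchange factor of the early Golgi, gave 0.10 and −0.12 and passed in neither fit.

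Of the 9 clathrin adaptor genes, 4 rose (AP1M2, AP1S1, GGA1 and GGA3) and 2 fell (AP1G1 and AP1S2) in the group fit, where 24.2% and 24.5% of all tested genes were called. With the GC offset AP1S1 was called higher and AP1B1 lower. AP-1 is built of a beta, a gamma, a medium and a small subunit. AP1S1, which encodes the small subunit sigma-1A, lies at chr7:101154400-101161596 on the plus strand and measured 90.82, 95.47 and 103.8 CPM in shCTRL and 169.5, 169.0 and 155.2 CPM in shFITM2. The groups were far apart, with shFITM2 at 170.1% of control. It rose by 0.77 ± 0.075 (adjusted p = 4.69e-05), and by 0.45 ± 0.051 with the offset (adjusted p = 1.61e-05). GC-adjusted levels were 103.8, 111.8 and 108.6 CPM against 148.6, 151.0 and 142.0 CPM, and all alternatives kept both calls, at 0.72 to 0.81 and at 0.41 to 0.56.

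AP1S2, which encodes an alternative small subunit, sigma-1B, lies at chrX:15825806-15854931 on the minus strand and measured 19.29, 21.58 and 16.72 CPM in shCTRL and 13.17, 13.51 and 13.80 CPM in shFITM2. All shFITM2 libraries were lower, and it fell by 0.51 ± 0.117 (adjusted p = 0.00401), against 0.09 ± 0.095 with the offset (adjusted p = 0.555). The genes have the most unequal GC content of the pairs compared, 56.0% for the AP1S1 transcript and 32.8% for that of AP1S2.

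The large and medium subunits gave other patterns. AP1B1 (beta) measured 177.8, 160.4 and 230.3 CPM in shCTRL and 233.3, 231.1 and 221.9 CPM in shFITM2, with shCTRL replicate 3 inside the shFITM2 range. The group fit gave 0.27 (adjusted p = 0.0835), and the GC offset −0.19 ± 0.057 (adjusted p = 0.0244). The second call was lost without shFITM2 replicate 1, 2 or 3 (adjusted p = 0.0793 to 0.101). It was also lost with the centred GC curve, the median GC of coding transcripts or no filter (adjusted p = 0.0881 to 0.636), at values down to −0.05. The group fit called AP1B1 higher without shCTRL replicate 3 (adjusted p = 3.75e-09), and so did no filter, the DESeq2 Wald test and limma-voom (adjusted p = 0.00123 to 0.0495). AP1G1 (gamma) fell by 0.31 (adjusted p = 0.00489), against −0.01 with the offset. With the median GC over its coding transcripts (50.3% in place of 42.6%) the AP1G1 value was −0.30 and was called lower (adjusted p = 0.00111). AP1M2, the medium chain of epithelial AP-1, rose by 0.29 (adjusted p = 0.0443), against −0.01 with the offset, and its call was lost without any library other than shCTRL replicate 3 (adjusted p = 0.0954 to 0.16). AP1M1, the medium chain found in most cells, gave 0.20 and 0.21 and was not called (adjusted p = 0.0982 and 0.0606). Without shCTRL replicate 2 or 3 it was called higher in both fits (adjusted p = 0.0163 to 0.0453). The AP1M1 value with the offset also depended on the transcript whose GC content was used, and was −0.24 with the median over coding transcripts (58.8% GC in place of 49.0%).

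The GGA proteins are single-chain adaptors that bind sorting receptors such as sortilin. GGA1 measured 33.96, 32.18 and 39.54 CPM in shCTRL and 54.84, 51.35 and 49.84 CPM in shFITM2. The groups were well apart, and GGA1 rose by 0.56 ± 0.095 (adjusted p = 0.00069). With the offset its levels lay between 41.5 and 44.3 CPM in all 6 libraries and the fold change was −0.04 (adjusted p = 0.738). GGA3 rose by 0.34 (adjusted p = 0.0247), against −0.004 with the offset, and its call was lost without any library other than shCTRL replicate 3 (adjusted p = 0.0511 to 0.105). GGA3 shares 213 exon bases with MRPS7 on the opposite strand, which had 1.56 times its reads. GGA2, which has a middling GC content of 49.4%, measured 90.7, 89.6 and 91.8 CPM in shCTRL and 84.6, 86.7 and 83.9 CPM in shFITM2 and gave −0.09 in both fits, not called.

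The 4 SNAREs form a single complex that fuses carriers from early endosomes with the trans-Golgi network, and VAMP4 was the member called, in the group fit. VAMP4, the SNARE on the carrier membrane, was the lowest of the 39 genes, at 10.12, 10.82 and 8.97 CPM in shCTRL and 6.81, 7.53 and 6.78 CPM in shFITM2. The groups did not overlap, and it fell by 0.50 ± 0.137 (adjusted p = 0.00999), against 0.04 ± 0.130 with the offset (adjusted p = 0.863). STX16 measured 100.7, 107.7 and 95.61 CPM in shCTRL and 95.57, 87.46 and 92.42 CPM in shFITM2, with shCTRL replicate 3 barely above the highest shFITM2 library. It gave −0.14 (adjusted p = 0.133) and −0.04 with the offset, and was called lower in the group fit without shCTRL replicate 3 (adjusted p = 0.00865). STX6 and VTI1A gave −0.11 each, and 0.12 and 0.09 with the offset, with overlapping groups and no call in either fit.

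Of the RAB GTPases, RAB6A and RAB11A fell and RAB8A rose in the group fit. RAB6A, which drives transport within and out of the Golgi, measured 253.4, 261.7 and 213.8 CPM in shCTRL and 174.7, 178.5 and 190.1 CPM in shFITM2. The groups did not overlap, with shCTRL replicate 3 the nearest, and RAB6A fell by 0.42 ± 0.082 (adjusted p = 0.00153), against −0.09 with the offset (adjusted p = 0.177). RAB8A, of carriers to the plasma membrane, rose by 0.39 (adjusted p = 0.0108), against 0.17 with the offset. Its call was lost without shCTRL replicate 1 or shFITM2 replicate 2 (adjusted p = 0.0503 to 0.0591).

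RAB11A, the GTPase of recycling endosomes, measured 425.8, 423.0 and 390.5 CPM in shCTRL and 339.8, 347.6 and 360.1 CPM in shFITM2. All shFITM2 libraries were lower, and the group fit called a fall by 0.24 ± 0.063 (adjusted p = 0.00813), a call lost without shFITM2 replicate 1 (adjusted p = 0.0505). Its transcript has 37.2% GC, and GC-adjusted levels were 357.6, 331.2 and 363.9 CPM in shCTRL against 415.6, 411.1 and 407.8 CPM in shFITM2. The fit with the offset called it higher, at 0.23 ± 0.046 (adjusted p = 0.00159). With the median GC content of its coding transcripts (43.0%) the RAB11A value was 0.09 and was not called (adjusted p = 0.124), and without a filter it was 0.08 (adjusted p = 0.357).

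CTBP1, which has a short form that acts in membrane fission of carriers and is also a transcriptional corepressor, measured 132.8, 120.8 and 156.7 CPM in shCTRL and 193.5, 191.7 and 180.5 CPM in shFITM2. The groups did not overlap. CTBP1 rose by 0.46 ± 0.091 (adjusted p = 0.0016), against −0.06 with the offset (adjusted p = 0.394). SORT1 (sortilin), a receptor that carries cargo from the trans-Golgi network to endosomes, measured 191.3, 181.7 and 164.6 CPM in shCTRL and 177.0, 178.4 and 185.0 CPM in shFITM2. The groups overlapped and the group fit gave 0.01 (adjusted p = 0.942). The fit with the offset gave 0.15 ± 0.049 and a call (adjusted p = 0.0372) that was lost without shCTRL replicate 2 or 3 or any shFITM2 library (adjusted p = 0.051 to 0.135), and with the replicate block, TMM from before the offset or no filter (adjusted p = 0.0503 to 0.17).

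**Figure D3:**
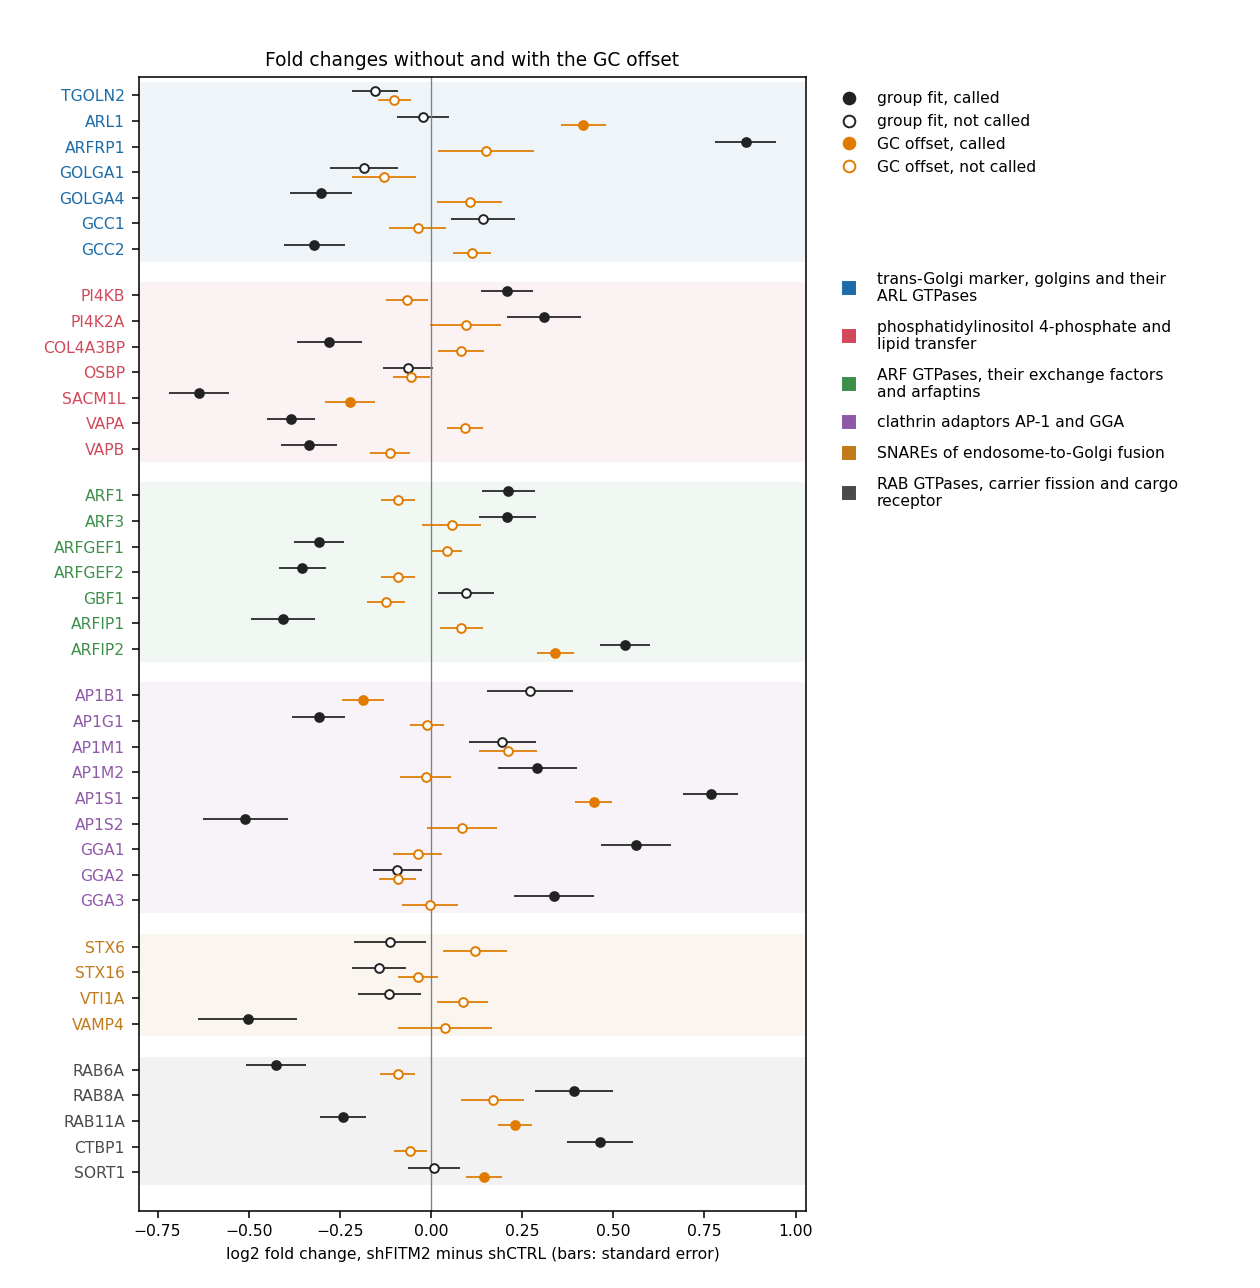
Log2 fold change (shFITM2 minus shCTRL) of each of the 39 genes with its standard error, in the group fit (black) and with the GC offset (orange), grouped by role; filled points passed an adjusted p under 0.05. The filled orange points are ARL1, SACM1L, ARFIP2, AP1B1, AP1S1, RAB11A and SORT1, and only those of SACM1L, ARFIP2 and AP1S1 stand beside a filled black point on the same side of 0.

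Related genes were compared as ratios of reads within a library, which cancels library size, for 9 pairs. AP1S1 had 4.71, 4.42 and 6.21 times the reads of AP1S2 in shCTRL and 12.9, 12.5 and 11.2 times in shFITM2. The groups were far apart, a difference of 1.27 on the log2 scale (exact permutation p = 0.1, the smallest possible; 0.18 after Benjamini-Hochberg adjustment over the 9 pairs). On GC-adjusted values it was 0.36, still without overlap. AP1S1 and AP1S2 together gave 115.9 ± 5.3 CPM in shCTRL and 178.1 ± 7.85 CPM in shFITM2 (SD, n = 3). Within this pair, AP1S1 made up 81.6% to 86.1% of the sum in shCTRL and 91.8% to 92.8% in shFITM2. The sum leaves out AP1S3, another small-subunit gene of the pathway, which had more reads than AP1S2 in every library. The shares are therefore not those of AP1S1 among all small-subunit genes. The ratio of ARFIP1 to ARFIP2 was 1.2, 1.31 and 1.03 in shCTRL and 0.599, 0.556 and 0.694 in shFITM2. ARFIP1 thus had more reads than ARFIP2 in every shCTRL library and fewer in every shFITM2 library. This crossing was absent from GC-adjusted levels, where ARFIP1 lay below ARFIP2 in every library of both groups. In shCTRL those levels were 80.8, 78.9 and 80.3 CPM for ARFIP1 and 86.8, 85.2 and 86.2 CPM for ARFIP2. Between groups the log2 ratio of ARFIP1 to ARFIP2 differed by −0.94, and by −0.26 on GC-adjusted values, again without overlap.

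The differences of AP1S1/AP1S2 and ARFIP1/ARFIP2 were smaller on GC-adjusted values, and those of the other pairs also changed with the adjustment. GGA1 to GGA2 differed by 0.66 between groups and GCC1 to GCC2 by 0.46, both without overlap, and by 0.05 and −0.15 on GC-adjusted values, where GCC1 to GCC2 was still without overlap but in the other direction. GGA1 to GGA3 differed by 0.22, without overlap, and by −0.04 after adjustment. AP1M1 to AP1M2 (−0.11), ARF1 to ARF3 (0.004), ARFGEF1 to ARFGEF2 (0.05) and VAPA to VAPB (−0.05) overlapped between groups. Of these, VAPA to VAPB differed more on GC-adjusted values (0.21), without overlap. The pairs without overlap in read ratios all had the smallest possible permutation p of 0.1 (0.18 adjusted). Those without overlap on GC-adjusted values also had 0.1 (0.225 adjusted), so none passed a test.

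**Figure D4:**
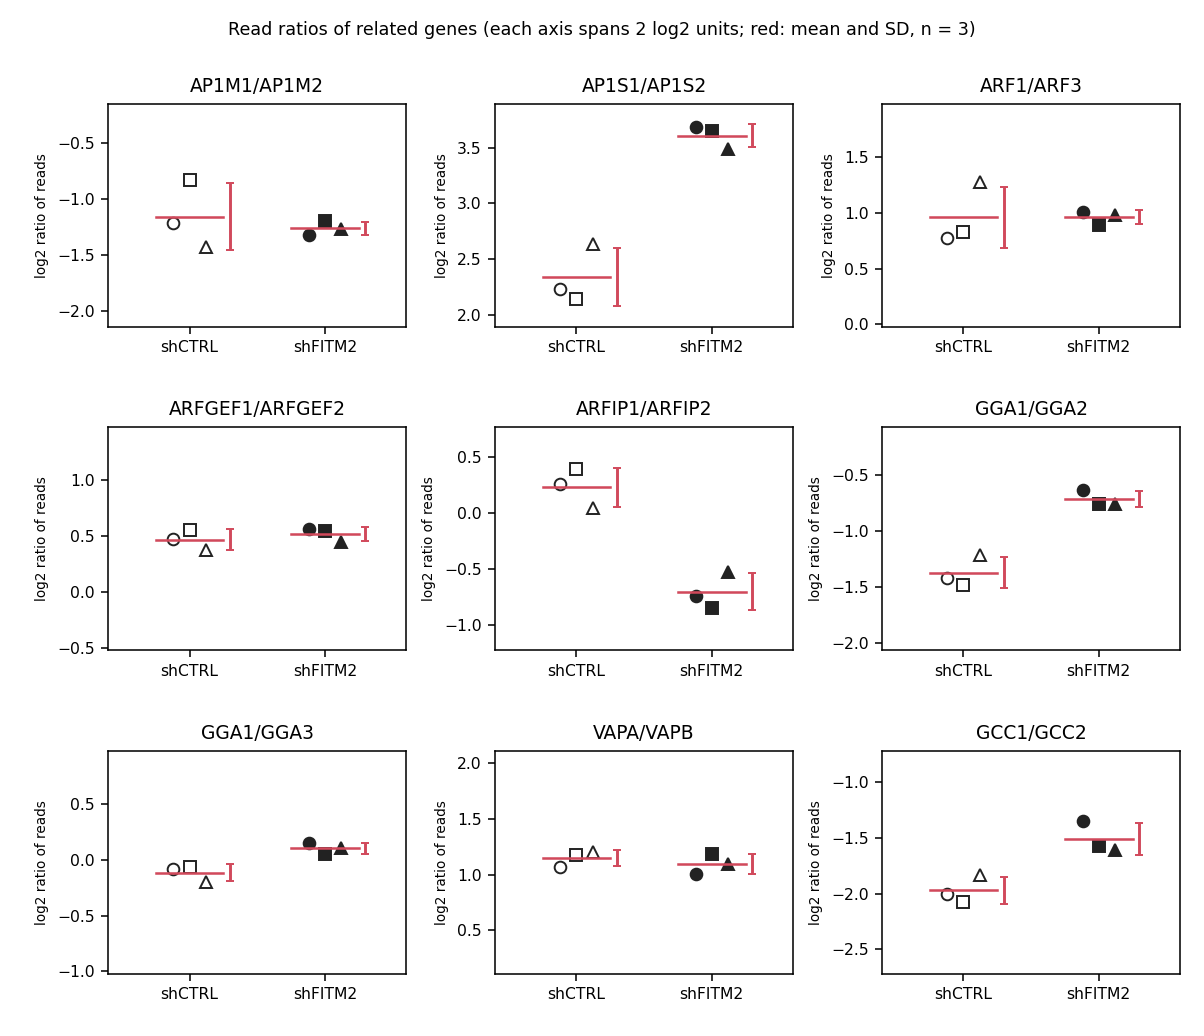
Log2 ratio of the reads of 9 pairs of related genes in each library (open symbols shCTRL, filled symbols shFITM2; circle, square and triangle are replicates 1, 2 and 3), with the mean and SD of 3 libraries in red and every axis spanning the same log2 range. The shFITM2 libraries lie above all shCTRL libraries for AP1S1/AP1S2, GGA1/GGA2, GGA1/GGA3 and GCC1/GCC2 and below them for ARFIP1/ARFIP2.

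In control cells, levels per kilobase of gene length ranged from 157.1 ± 15.4 CPM for ARF1 to 1.93 ± 0.18 CPM for VAMP4 (SD, n = 3). ARF1 was followed by RAB11A (72.7 ± 3.45) and TGOLN2 (65.1 ± 3.58), and these 3 did not overlap with their neighbours in the order. AP1S1 (55.1), ARF3 (53.1), RAB6A (49.6) and AP1M2 (44.4) came next and each overlapped with the following gene in this run. In all, 8 genes were at 30 CPM per kilobase or more and 15 under 10, and 27 of 38 neighbouring pairs in the order overlapped. Per kilobase, AP1M2 (44.4 ± 7.86) stood above AP1M1 (3.05 ± 0.296). Much of that gap lies in the lengths used, 2214 bases for AP1M2 and 14371 for AP1M1, since read levels were 98.3 and 43.8 CPM. AP1S1 stood above AP1S2 (3.57 ± 0.453). The SNAREs had means under 20 CPM per kilobase. The order depended little on the length used, with a Spearman correlation of 0.961 over the 39 genes between levels per gene length and per length of 1 transcript, although single levels moved (ARFRP1 from 4.32 to 11.1, SACM1L from 6.82 to 13.5).

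**Figure D5:**
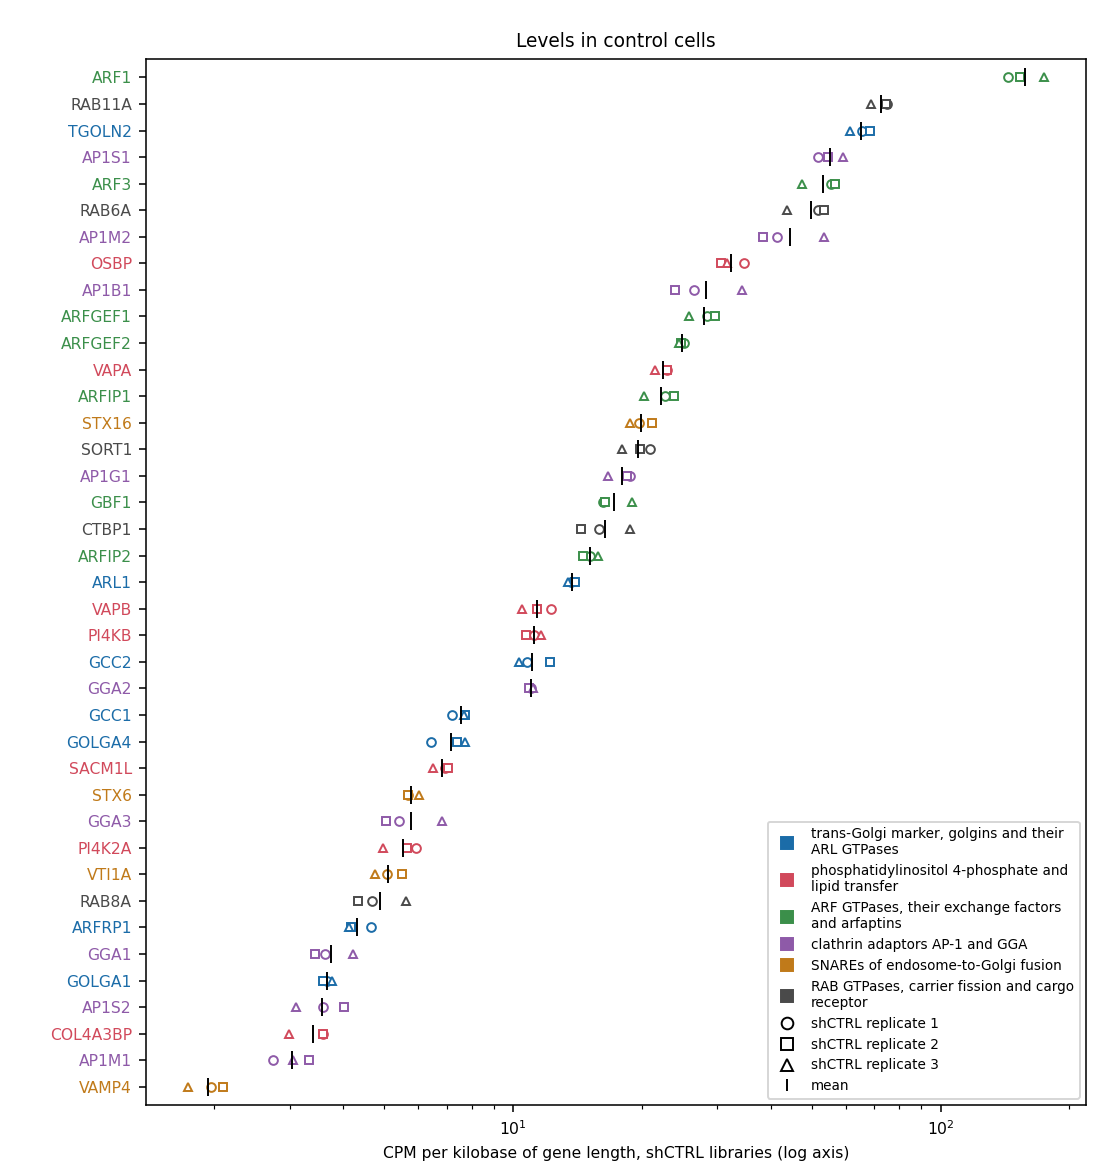
Level of each of the 39 genes in the 3 shCTRL libraries, as CPM per kilobase of gene length on a log axis, ordered by the mean (black bar) and coloured by role. ARF1 lies alone at the top at 157.1, and VAMP4 at the bottom at 1.93.

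A list of 113 other genes of the same pathways, picked by function, gives the surroundings. Of the 110 tested, 29 were called higher and 41 lower in the group fit, and 18 and 17 with the GC offset, of which 10 and 10 had the same direction in both. The shares of all tested genes called higher and lower were 24.2% and 24.5% in the group fit, 13.5% and 14.6% with the offset, and 8.62% and 8.55% in both. VPS51, ARF5 and STX10 were called in opposite directions. Golgins and tethers were called lower in 10 and higher in 2 of 19 in the group fit, and in 5 and 1 with the offset. Clathrin and other adaptors were called lower in 11 and higher in 4 of 22, and in 6 and 1 with the offset.

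Of these genes, the 8 with the smallest p with the offset, among those called in the same direction in both fits, kept their calls under all alternatives. RAB13, a GTPase of epithelial junctions and of traffic between the trans-Golgi network and endosomes, measured 1.43, 1.57 and 1.47 CPM in shCTRL and 6.15, 5.81 and 5.60 CPM in shFITM2. It rose by 1.97 ± 0.197, and by 2.09 with the offset, from 25 to 29 reads per shCTRL library. ATP9A, a phospholipid flippase-like P4-ATPase of endosomes and the trans-Golgi network, measured 217.5, 209.4 and 228.9 CPM against 363.8, 374.5 and 381.8 CPM. It rose by 0.77 ± 0.063, and by 0.75 with the offset. Both genes had shFITM2 libraries far above all shCTRL libraries.

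Tethering factors went both ways. FAM91A1, listed here with the golgins and Golgi tethers, measured 472.6, 499.7 and 464.7 CPM in shCTRL and 261.4, 270.4 and 269.2 CPM in shFITM2. It fell by 0.84 ± 0.061, and by 0.38 with the offset. GOLGA2 (GM130), a golgin of the cis-Golgi, rose by 0.73 and by 0.47, while GORASP2, a stacking protein of the Golgi, fell by 0.31 and by 0.33. AP1AR, a regulator of AP-1, fell by 0.91 ± 0.084 and by 0.46, from 76.1 ± 5.56 to 40.6 ± 2.04 CPM (SD, n = 3). IGF2R, the mannose 6-phosphate receptor that AP-1 and GGA proteins carry, rose by 0.26 in both.

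Promoter sequence was examined for ACGTGGC, the core of a Golgi stress response element, on either strand within 250 bases before to 50 bases after the gene start in RefSeq (GRCh38.p14). Windows were matched for 34 of the 39 genes, COL4A3BP under its current symbol CERT1. The letters occurred in 5 of them (14.7%), against 3.22% of all 35116 windows and 4.22% of the 14542 windows of tested genes. They are printed with the match in capitals, 5′ to 3′ on the strand of the gene, because both arfaptin genes are among them.
GOLGA1: gccgctcgctgACGTGGCgaactgggctg
ARF1: cggaggcgctgACGTGGCcgccgtc
ARFIP1: acaccaccgagACGTGGCcgggcaaggcc
ARFIP2: tataatctgcgACGTGGCcggcttcttct
AP1S2: gcttccgggtcACGTGGCccggcttccgg
The stretches lie at chr9:124941247-124941275 (GOLGA1, minus strand), chr1:228082683-228082707 (ARF1, plus), chr4:152779873-152779901 (ARFIP1, plus), chr11:6481357-6481385 (ARFIP2, minus) and chrX:15855027-15855055 (AP1S2, minus). The match begins 181, 14, 70, 43 and 231 bases before the gene start. In the group fit ARF1 and ARFIP2 rose, ARFIP1 and AP1S2 fell and GOLGA1 was not called, so genes with the letters had no common direction. A match is a description of these letters and not of a bound site.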

How the data were processed

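RNA-seq of 6 HT29 libraries, 3 per group, was analysed from the table of raw counts per gene that the authors deposited. The kit was NEBNext Ultra Directional, per the labels' protocols. Per the submitters' processing notes, which give no roles, the tools were featureCounts 1.5.0-p3, DESeq2 1.16.1, HISAT2 2.0.5 and StringTie 1.3.3b, and the build hg19. All 58735 Ensembl identifiers of the table nevertheless have the GRCh38 position and strand of GENCODE 29, so coordinates here are those of GRCh38. The strand setting of the counting is not given in the sources used here, so reads of overlapping genes may be included. ARFRP1, CTBP1, ARFGEF1 and RAB8A overlap genes with 0.057 to 0.194 times their reads.

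Counts were tested with edgeR 4.0.16 (quasi-likelihood F-test, robust, TMM; limma 3.58.1, R 4.3.3) after an expression filter (minimum count 10, minimum total 15), with group as the sole term and Benjamini-Hochberg adjustment. For the GC offset, the log2 deviation of each gene in a library was smoothed against transcript GC (spline of 6 degrees of freedom, 1 GENCODE transcript per gene, coding first and then the longest). The curve was subtracted as an offset, TMM was recomputed on adjusted counts, and real changes that track GC are removed with it. Of tested genes, 98.8% had a GC value. Both fits were tested on simulated data.

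The chi-square per gene between replicates was 2.33 to 29, so each library counted as a separate sample. The members and lists were chosen with earlier results of these data known. Named are FITM2, all 39 members, and the 8 other pathway genes with the smallest p with the offset among those called in the same direction in both fits. PI4KA, PI4K2B and AP1S3 were added after their values were seen, and VPS51, ARF5 and STX10 are named as called in opposite directions. A few results, 1 of the 8 among them, are not reported here. Values per library are given for members called in both fits, the 2 of each role with the smallest p and pairs whose directions differ, and others were added after their values were seen. The alternatives were limma-voom, the Wald test of DESeq2 1.42.0, size factors of DESeq2, library totals, no filter, a replicate block and each library left out, and, for the offset, transcript length, a spline of 4 degrees of freedom and, chosen after seeing the data, other centring (TMM from before the offset, a curve centred on its mean) and the median GC of all coding transcripts.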

Additional observations from a re-analysis of the deposited data

How the results depend on the processing

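Of the 26 members called in the group fit, 15 kept their call under all 12 alternatives, and of the 7 called with the GC offset, AP1S1, ARFIP2 and ARL1 did so under all 13. The counts in this paragraph are of listed genes alone. Whether the members were more or less stable than other genes was not tested. Leaving out a library gave 5 to 15 members higher and 10 to 16 lower in the group fit, and 4 to 8 higher and 0 to 5 lower with the offset. The 2 members called lower with the offset became 4 with TMM from before the offset, 0 with the GC curve centred on its mean, 4 with the median GC of all coding transcripts and 4 without a filter. The offset itself took the other pathway genes from 29 to 18 higher and from 41 to 17 lower. The replicate numbers did not pair the libraries (correlations of deviations −0.0412, −0.00656 and −0.0653 for the same number). With the replicate block, 9 members were higher (PI4KB, ARF1 and ARF3 were lost) and 14 lower, and with the offset as well 5 (AP1M1 gained, SORT1 lost) and 2. With the offset, other settings that kept all libraries also gained TGOLN2, ARFRP1, GCC2, VAPB, ARFGEF2, GBF1, AP1G1, AP1M1, RAB6A and RAB8A.

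Signs turned for members whose value in that fit was not called. In the group fit, SORT1 ran from −0.057 to 0.052 as libraries were left out, and the other turns were with the GC offset. Without a filter, which lets genes of few reads into the GC curve, values were GOLGA4 −0.017, GCC1 0.047, GCC2 −0.019, PI4KB 0.042, COL4A3BP −0.026, VAPA −0.055, ARF1 0.024, ARFGEF1 −0.060, ARFIP1 −0.069, AP1M2 0.10, AP1S2 −0.12, GGA1 0.12, GGA3 0.12, VAMP4 −0.14 and CTBP1 0.089. With the median GC of coding transcripts they were GOLGA4 −0.026, GCC1 0.012, VAPA −0.035, AP1M1 −0.24, AP1M2 0.033, AP1S2 −0.013, GGA3 0.030 and STX16 0.018. With the centred curve AP1G1 was 0.020, AP1M2 0.015 and GGA3 0.026, and GGA3 was 0.012 with length added and 0.0014 with 4 degrees of freedom. As libraries were left out, ranges that crossed 0 were ARFRP1 −0.026 to 0.25, GCC1 −0.075 to 0.020, PI4K2A −0.0076 to 0.15, ARF3 −0.044 to 0.12, AP1G1 −0.037 to 0.015, AP1M2 −0.079 to 0.078, GGA3 −0.059 to 0.069 and VAMP4 −0.023 to 0.091. The read ratio AP1M1/AP1M2 then ran from −0.24 to 0.058 and ARF1/ARF3 from −0.089 to 0.16. On GC-adjusted values AP1M1/AP1M2 (0.22), ARF1/ARF3 (−0.15), GGA1/GGA3 (−0.038), VAPA/VAPB (0.21) and GCC1/GCC2 (−0.15) turned. The cause of these turns was not tested.

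With 3 libraries a group, exact tests of single values cannot fall below 0.1. Reads limit VAMP4 and AP1S2 most, and the GC content of 1 transcript stands for all forms of a gene.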
